A study of Mus musculus with 6 samples.

Results

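Desmosomes are the spot junctions that fasten epithelial cells to each other and anchor keratin filaments to the cell border. Their adhesive layer is made of 2 kinds of cadherin, the desmogleins and the desmocollins. Inside the cell, plakoglobin and the plakophilins bind the cadherin tails, and desmoplakin links this plaque to keratin. In the mammary gland both the luminal and the myoepithelial layers form desmosomes, and the isoforms in use differ between simple and stratified epithelia. Expression of 10 desmosome genes was followed in primary mammary epithelial cells (MEC) and in tumor cell lines without JNK (MEKO). The 10 were listed by symbol: the desmogleins *Dsg2* and *Dsg3*, the desmocollins *Dsc2* and *Dsc3*, desmoplakin (*Dsp*), the plakophilins *Pkp1*, *Pkp2* and *Pkp3*, plakoglobin (*Jup*), and *Perp*, which encodes a tetraspan membrane protein of desmosomes. Each of the 10 was found on 1 entry of a table of 37755 entries, and 9 passed the filter for testing. *Dsc3* was too low on average and is described without a test.

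The study asked how gene expression in tumor cells that arose without JNK differs from that of mammary epithelial cells. RNA was sequenced from 3 MEC preparations and 3 MEKO lines, 1 library each, all on a C57/Bl6J background. MEC carried *Wap-Cre* with intact JNK genes, and cells of each preparation came from the pooled glands of 3 to 5 virgin mice, 10 to 12 weeks old, and were grown on collagen I. MEKO lines carried *Wap-Cre* with deletion of *Mapk8* and *Mapk9*, which encode JNK1 and JNK2, and were grown from tumors, 2 passages on collagen I and then on standard dishes. *Wap-Cre* is switched on by lactation in luminal cells, so the tumors come from parous mice while MEC came from virgins. The study sought tumors by palpation after weaning, so their mice were also older than those of MEC. Loss of JNK, tumor origin, parity, age of the mice and time in culture therefore cannot be told apart. Each line is a single tumor. By the tag of the mouse, the study classed the tumor behind line 199 as adenosquamous carcinoma, that behind line 336 as adenocarcinoma, and that behind line 233 as both.

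Values are FPKM, which scale the fragments of a gene by its length and by the size of the library, so levels of different genes can be set side by side per length. The summed FPKM of a library was 557991 to 638365. The number of reads is unknown, so no counting interval was computed; relative to MEC 1, the other libraries were sequenced 0.92 to 1.30 times as deeply, judged from their smallest values. *Mapk8* and *Mapk9* kept 6.09% to 33.6% of their MEC mean in the 3 lines, below every MEC library. Epithelial markers were detected in all libraries, but most were lower in MEKO. *Epcam* had 519 to 549 FPKM in MEC and 128 to 252 FPKM in MEKO. The 8 epithelial markers summed to 6191 to 9177 FPKM in MEC and to 1318, 2723 and 2605 FPKM in lines 199, 233 and 336. Of the 8, 6 lay below every MEC library in each line, as did 18.7% of all tested entries. *Krt8* and *Krt18* are in both this list and the luminal list. Markers of the layers differed between the lines. The 8 luminal markers were below every MEC library in each line, with sums of 436 FPKM in line 199, 1751 in line 233 and 1060 in line 336, against 4551 to 8150 in MEC. The 8 basal and myoepithelial markers summed to 1882 FPKM in line 199, within the MEC range of 1341 to 2328, but to 10.1 in line 233 and 45.1 in line 336. In line 199 *Krt5* (608 FPKM), *Krt14* (521) and *Acta2* (719) made up most of this sum. *Krt5*, *Krt14* and *Trp63* were above every MEC library there. *Myh11*, *Cnn1*, *Mylk* and *Oxtr* had 0.0812, 16.8, 0.714 and 0.0125 FPKM in line 199. With *Acta2* they were below every MEC library in each line. The 8 fibroblast markers summed to 1111 FPKM in line 199, against 118 to 207 in MEC and 2.43 and 4.23 in lines 233 and 336. *Col1a1* (600 FPKM) and *Col1a2* (408) made up most of the sum of line 199. These collagens, *Col3a1*, *Pdgfra* and *Pdgfrb* were above every MEC library in line 199. *Dcn*, *Lum* and *Thy1* were below every MEC library there, at 0.311, 0.0264 and 11.1 FPKM. In bulk RNA, fewer cells of a type and less RNA per cell cannot be told apart.

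Most desmosome genes were lower in MEKO, by amounts that differed between genes and lines. The desmogleins were furthest below MEC, followed by *Pkp1* and *Dsc2*. The means of *Pkp2*, *Dsp*, *Jup* and *Pkp3* were lower by smaller amounts, and that of *Perp* was not lower. Of the 9 tested genes, 2 passed the adjusted p of 0.05 and the log2 fold change of 0.75 used by the study, *Dsg2* and *Pkp2*, both lower. Across all 12461 tested entries 9.9% were called, 7.26% lower and 2.64% higher. Each of the 9 had a mean above 1 FPKM in both groups. None of the 9 was called higher by limma, and none was higher at an unadjusted p under 0.05, while 7 were lower at that level, against 15.7% of all entries. In 7 of the 9 every MEKO library lay below every MEC library, as in 18.7% of all entries. The median log2 fold change of the 9 was -1.24, against 0.01 for all tested entries. The number of calls depended on which library was left out. Without line 199, 7 of the 9 passed both thresholds (*Dsg2*, *Dsg3*, *Dsc2*, *Dsp*, *Pkp1*, *Pkp2* and *Jup*), so *Dsg2* and *Pkp2* stayed called. Without line 233 or line 336 the calls stayed *Dsg2* and *Pkp2*. Without any one of the MEC libraries only *Dsg2* passed. *Dsg3*, *Dsc2*, *Dsp*, *Pkp1* and *Jup* thus passed in no leave-one-out fit other than that without line 199. The calls over all entries moved as well, to 11.2%, 6.27% and 5.68% lower without lines 199, 233 and 336. They moved to 1.7%, 1.98% and 3.13% lower without MEC 1, 2 and 3. Line 199 is the line with 1882 FPKM of basal and 1111 FPKM of fibroblast markers, sums led by keratins, *Acta2* and collagens. The part of these markers in the differences was not tested.

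**Figure D1:**
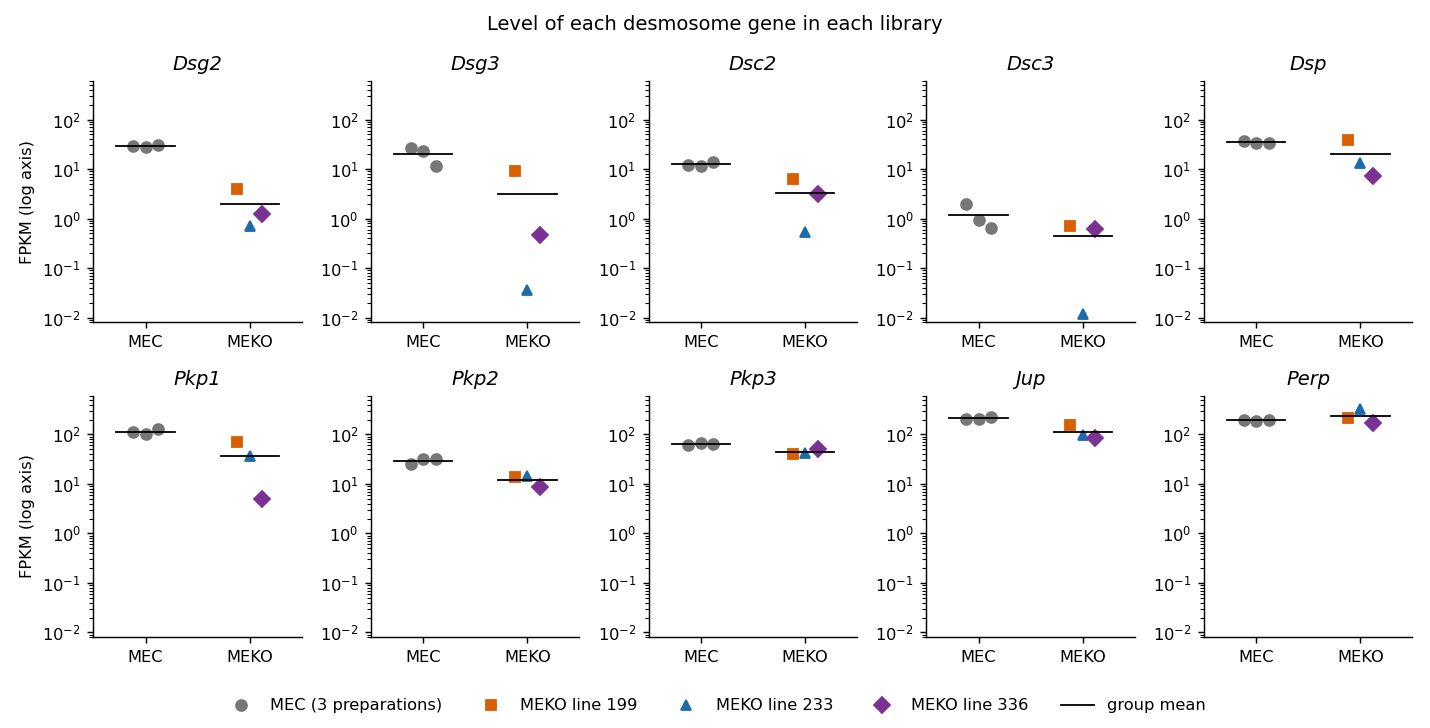
FPKM (log axis) of each desmosome gene in the 3 MEC libraries (grey circles) and in MEKO lines 199 (squares), 233 (triangles) and 336 (diamonds), with the group mean as a line. The *Dsg2* values of MEKO, 0.694 to 3.93 FPKM, sit far under the MEC values of 28.1 to 30.6, while *Perp* stays between 168 and 322 FPKM in every library.

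Desmogleins carry the calcium-dependent contact between cells. *Dsg2*, the desmoglein found in simple and stratified epithelia alike, had 28.9, 28.1 and 30.6 FPKM in the MEC libraries and 3.93, 0.694 and 1.25 FPKM in lines 199, 233 and 336. The MEC values lay within a narrow band and the highest MEKO value was 13.4% of their mean. Its log2 fold change was -3.51 ± 0.39 (standard error, n = 3 against 3; limma adjusted p = 0.00484). *Dsg2* was called in each of the 13 alternative fits, with adjusted p values from 0.000512 to 0.0348. *Dsg2* shares 330 bases, 3.99% of its exons, with *Gm16090* on the opposite strand, and whether reads were counted by strand is not given in the sources used here. *Dsg3*, typical of the basal layers of stratified epithelium, had 26.8, 22.8 and 11.7 FPKM in MEC and 9.0, 0.0368 and 0.468 FPKM in the lines.

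The groups of *Dsg3* did not overlap, but MEC 3 and line 199 lay close to each other, and line 199 kept 44.0% of the MEC mean where line 233 kept 0.18% and line 336 kept 2.29%. The log2 fold change of -3.04 ± 0.86 (standard error) did not pass (limma adjusted p = 0.0761). Without line 199 the value was -4.04 and it passed (limma adjusted p = 0.00323). With any other library left out *Dsg3* did not pass (limma adjusted p = 0.151 to 0.226). The lines with little *Dsg3* were also those with low basal marker sums, 10.1 and 45.1 FPKM, and the part of these markers in the result was not tested.

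Desmocollins pair with desmogleins across the junction. *Dsc2*, the broadly expressed desmocollin, had 12.1, 11.4 and 14 FPKM in MEC and 6.44, 0.544 and 3.06 FPKM in lines 199, 233 and 336. Every line was below every MEC library, line 233 by the most at 4.35% of the MEC mean. With -1.90 ± 0.55 (standard error) on the log2 scale it did not pass (limma adjusted p = 0.079), and without line 199 it was -2.43 and passed (limma adjusted p = 0.0176). *Dsc3*, the desmocollin of basal cells, was low even in MEC, with 1.98, 0.916 and 0.647 FPKM. Lines 199 and 336 had 0.718 and 0.628 FPKM, close to the lowest MEC library, and line 233 had 0.012 FPKM. The group means of *Dsc3* were 1.18 ± 0.706 and 0.453 ± 0.385 FPKM (SD, n = 3), and the groups overlapped.

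The 4 cadherin genes lie together on chromosome 18 of GRCm38 (mm10), between 19960930 and 20604521. *Dsc3* and *Dsc2* are on the minus strand, and *Dsg3* and *Dsg2* are on the plus strand. The chromosome as a whole did not stand apart: over its 300 tested entries lines 199, 233 and 336 had median log2 ratios to MEC of 0.03, -0.02 and 0.09. Within 1 Mb of the cluster, 6 other entries were tested and 3 were called lower, against 7.26% of all tested entries. The 3 were *Gm16090* at the end of *Dsg2*, *B4galt6*, which encodes a galactosyltransferase, and *Rnf125*, which encodes a ubiquitin ligase. *Gm16090* overlaps exons of *Dsg2* on the opposite strand, so their values may share reads, which was not tested. These neighbors are named for their position. *B4galt6* had 4.89 to 7.45 FPKM in MEC and 2.43, 0.145 and 0.274 FPKM in lines 199, 233 and 336 (log2 fold change -2.04, limma adjusted p = 0.0398). The other 3 lay among the called entries or beyond them. *Gm10269*, between *Gm16090* and *B4galt6*, had a log2 fold change of 0.34 (limma adjusted p = 0.36), and *Trappc8*, between *B4galt6* and *Rnf125*, and *Rnf138*, past *Rnf125*, had 0.15 each (limma adjusted p = 0.541 and 0.636). Copy number was not analysed here.

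The other genes of the cadherin cluster were hardly expressed in either group. *Dsc1*, *Dsg1a*, *Dsg1b*, *Dsg1c* and *Dsg4*, isoforms of the outer epidermis and hair, were at or below 0.164 FPKM in every library, the highest being *Dsg1b* in line 199. Reads of the near-identical *Dsg1* copies cannot be assigned with confidence. No desmoglein or desmocollin therefore reached the MEC level of *Dsg2* in any line.

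Desmoplakin and plakoglobin are the plaque proteins that every desmosome uses, and in all 3 lines they kept a larger share of their MEC level than the desmogleins did. RefSeq promoters (GRCm38.p6) were matched for 2 of the 10 members, *Dsp* and *Jup*, and the bases before their starts are printed for that reason. *Pkp3*, for which none was matched, kept still larger shares in lines 233 and 336. Capitals mark GC boxes (GGGCGG on either strand), the sites read by SP1-type factors. The *Dsp* stretch is chr13:38151144-38151293 on the plus strand and the *Jup* stretch is chr11:100397841-100397960 on the minus strand, neither within an annotated exon of its gene.
Dsp: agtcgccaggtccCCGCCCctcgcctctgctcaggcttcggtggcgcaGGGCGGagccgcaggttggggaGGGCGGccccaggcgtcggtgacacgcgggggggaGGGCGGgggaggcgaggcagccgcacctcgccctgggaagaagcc
Jup: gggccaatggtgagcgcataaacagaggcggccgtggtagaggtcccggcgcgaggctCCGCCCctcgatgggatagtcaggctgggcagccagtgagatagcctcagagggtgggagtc

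Over the full window of 300 bases *Dsp* held 4 GC boxes and *Jup* held 2, none of them overlapping. Of 32851 RefSeq promoter windows, 5.49% held 4 or more and 19.5% held 2 or more. The GC content was 73.0% for *Dsp* and 60.7% for *Jup*, against a median of 52.7%. The AP1 motif TGANTCA, which factors downstream of JNK read, was in neither window and was in 7.81% of all windows, and TATAAA was in neither and in 13.6%. The E-box motif was also sought. It had 1 match in the *Dsp* window, outside the printed stretch, and no match in that of *Jup*, and it was in 20.2% of all windows. These matches describe the letters of the windows only.

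*Dsp* had 36.4, 34.1 and 33.3 FPKM in MEC and 39.4, 13.2 and 7.33 FPKM in lines 199, 233 and 336. Line 199 was above every MEC library, and the other two lines were far below. The log2 fold change of *Dsp* was -1.08 ± 0.54 (standard error) and did not pass (limma adjusted p = 0.248). Without line 199 it was -1.71 and passed (limma adjusted p = 0.0109). *Dsp* shares 499 bases, 5.17% of its exons, with *Gm10129* on the opposite strand. *Jup*, the most abundant of the 10 in MEC, had 203, 206 and 223 FPKM there and 157, 96.3 and 82.8 FPKM in the lines. Each line was below each MEC library, with 74.5%, 45.6% and 39.3% of the MEC mean. *Jup* differed by -0.96 ± 0.25 (standard error) on the log2 scale, short of the threshold (limma adjusted p = 0.0594), and without line 199 it was -1.23 and passed (limma adjusted p = 0.00507).

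Plakophilins cluster the cadherins and hold the plaque together laterally. *Pkp1*, the plakophilin of stratified epithelium, had 113, 103 and 128 FPKM in MEC and 70.4, 35.9 and 5.01 FPKM in lines 199, 233 and 336. All lines were below MEC and they differed from each other 14.1-fold. The log2 fold change of *Pkp1*, -2.20 ± 0.85 (standard error), did not pass (limma adjusted p = 0.158). Without line 199 it was -2.95 and passed narrowly (limma adjusted p = 0.0492). *Pkp2*, found in simple epithelia and in heart muscle, had 25.5, 31.3 and 32.2 FPKM in MEC and 13.6, 14.3 and 8.74 FPKM in the lines.

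The 3 lines lay closer to each other for *Pkp2* than for *Pkp1*, and the difference of -1.24 ± 0.22 (standard error) on the log2 scale passed (limma adjusted p = 0.0219). This call was lost when MEC 1, 2 or 3 was left out, with log2 fold changes of -1.34, -1.19 and -1.18 and limma adjusted p values of 0.0775, 0.1 and 0.0906. *Pkp3*, the plakophilin with the widest range of tissues and partners, had 59.8, 67.8 and 65.1 FPKM in MEC and 39.5, 42.0 and 50.3 FPKM in the lines. Every line was again below every MEC library, but by little, by -0.54 ± 0.15 (standard error) on the log2 scale (limma adjusted p = 0.069). *Pkp3* was not called in any of the 13 alternative fits.

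*Perp*, a target of p53 and p63 needed for desmosome assembly in stratified epithelium, had 199, 184 and 198 FPKM in MEC and 217, 322 and 168 FPKM in lines 199, 233 and 336. Lines 199 and 233 were above the MEC range and line 336 was below it. The difference of 0.23 ± 0.24 (standard error) on the log2 scale did not pass (limma adjusted p = 0.563). It changed sign, to -0.017, without line 233.

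**Figure D2:**
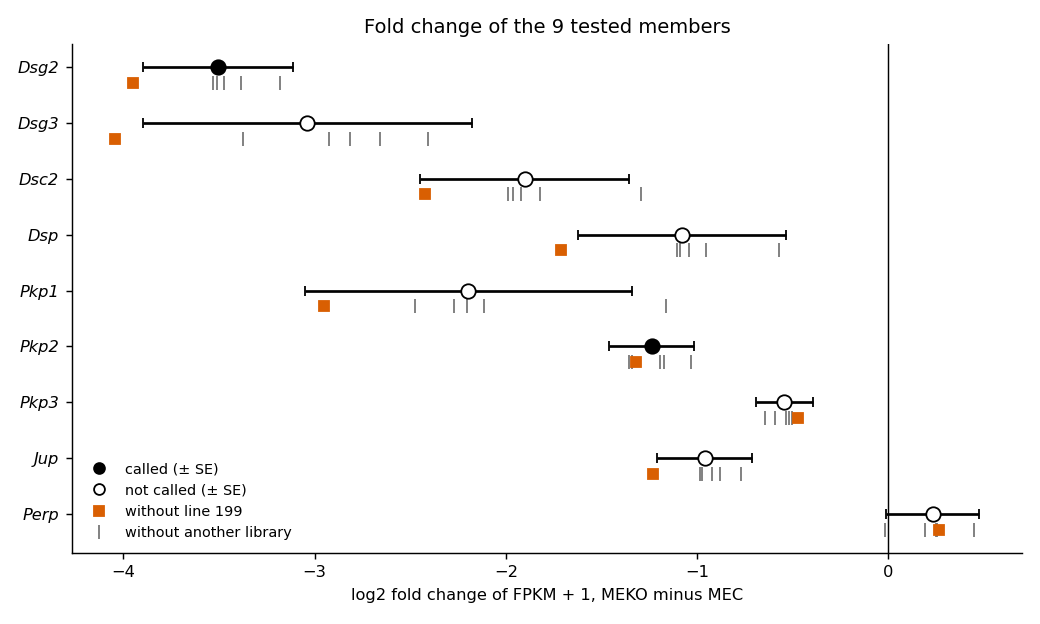
log2 fold change of FPKM + 1, MEKO minus MEC, for the 9 tested members, with the limma standard error as bars; filled circles passed both thresholds. Orange squares give the value without line 199 and grey ticks the value without each other library. *Dsg2* at -3.51 and *Pkp2* at -1.24 are filled, and leaving out line 199 moves *Dsg3* to -4.04 and *Pkp1* to -2.95.

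For a single gene the exact permutation test (two-sided) cannot go below p = 0.1 with 3 libraries against 3. That value was reached by *Dsg2*, *Dsg3*, *Dsc2*, *Pkp1*, *Pkp2*, *Pkp3* and *Jup*. The exact permutation p was 0.4 for *Dsp*, 0.6 for *Perp* and 0.2 for *Dsc3*.

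Each line was then set against the 3 MEC libraries. With 1 library per line there is no test, and a gene was counted when it was below the MEC range and lower by more than 2-fold on the log2(FPKM + 1) scale. In line 199 this held for 3 of the 9 tested genes, *Dsg2*, *Dsg3* and *Pkp2*, against 12.3% of all tested entries. In line 233 it held for 6, *Dsg2*, *Dsg3*, *Dsc2*, *Dsp*, *Pkp1* and *Jup*, against 13.8% of entries. In line 336 it held for 7, the same 6 and *Pkp2*, against 14.4% of entries. None of the 9 was higher by more than 2-fold in any line, as 7.89%, 6.36% and 6.79% of all entries were in lines 199, 233 and 336. The median log2 ratio of the 9 to MEC was -0.69, -1.33 and -1.73 in the same order, and the median of all tested entries was 0.0086, 0.0016 and 0.02.

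The 3 lines did not share one order. Line 199 had the highest MEKO value of 7 of the 10 genes. Line 233 had the lowest value of 4, the cadherins *Dsg2*, *Dsg3*, *Dsc2* and *Dsc3*, and the highest *Perp*. Line 336 had the lowest value of 5, the plaque genes *Dsp*, *Jup*, *Pkp1* and *Pkp2* together with *Perp*. Line 336 also had the most *Pkp3* of the lines, and line 199 the least. The lines ran apart most in *Dsg3*, and least in *Pkp3*, where the highest line was 1.27 times the lowest.

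**Figure D3:**
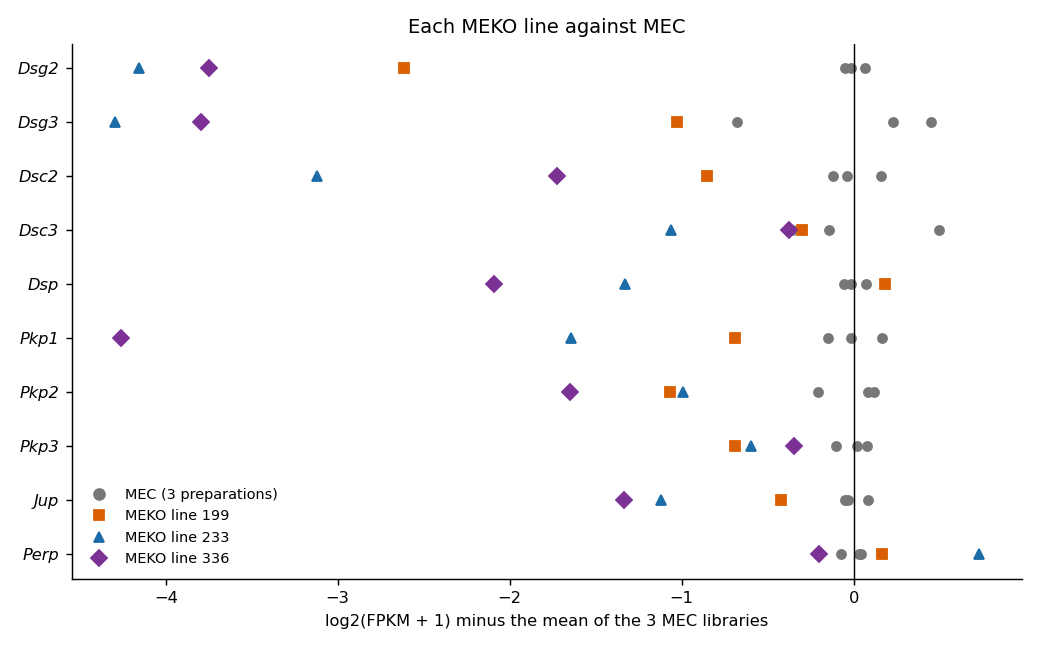
log2(FPKM + 1) of each library minus the MEC mean, by gene, for MEC (grey circles) and lines 199, 233 and 336. Line 233 is leftmost for the cadherins, down to -4.30 for *Dsg3*, and line 336 is leftmost for *Dsp*, *Jup*, *Pkp1* and *Pkp2*, down to -4.26 for *Pkp1*, and rightmost of the lines for *Pkp3*.

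The order of the levels changed with the group. In MEC the mean FPKM ran from *Jup* (211) and *Perp* (194) through *Pkp1* (114), *Pkp3* (64.2), *Dsp* (34.6), *Pkp2* (29.7), *Dsg2* (29.2), *Dsg3* (20.5) and *Dsc2* (12.5) to *Dsc3* (1.18). Neighbors in this order had MEC libraries that did not overlap, except *Pkp2* with *Dsg2* and *Dsg3* with *Dsc2*. In MEKO *Perp* (236) stood first, then *Jup* (112), *Pkp3* (43.9), *Pkp1* (37.1), *Dsp* (20.0), *Pkp2* (12.2), *Dsc2* (3.35), *Dsg3* (3.17), *Dsg2* (1.96) and *Dsc3* (0.453). There *Pkp3* with *Pkp1*, *Pkp1* with *Dsp*, *Dsp* with *Pkp2*, and each pair of cadherin neighbors overlapped between lines.

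Sums over the cadherins and over the plakophilins were formed after their values were seen, and are given without a test. The 4 cadherins together had 57.0 to 69.8 FPKM in MEC and 20.1, 1.29 and 5.41 FPKM in lines 199, 233 and 336. For each 100 FPKM of *Jup*, the plaque protein that binds them, MEC had 25.5 to 34.3 FPKM of cadherin, and the lines had 12.8, 1.34 and 6.53. The lines were thus low in cadherin also relative to *Jup*, line 233 by the most. The 3 plakophilins together had 198 to 225 FPKM in MEC and 123, 92.3 and 64.0 FPKM in the lines. For each 100 FPKM of *Jup* this was 97.5 to 101 in MEC, 78.6 in line 199, 95.9 in line 233 and 77.3 in line 336, so plakophilin and plakoglobin transcripts kept a more even proportion than cadherin and plakoglobin.

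The mix within each family also differed. Desmocollins made up 19.4% to 25.7% of the cadherin sum in MEC and 35.7%, 43.2% and 68.3% in lines 199, 233 and 336. *Dsg3* made up 20.6% to 38.4% of the sum in MEC, 44.8% in line 199, 2.86% in line 233 and 8.66% in line 336. Shares in line 233 rest on sums near 1 FPKM. *Pkp1* made up 50.9% to 56.9% of the plakophilin sum in MEC, 57.0% in line 199, 38.9% in line 233 and 7.82% in line 336. *Pkp3* took the place of *Pkp1* as the leading plakophilin in lines 233 (45.6%) and 336 (78.5%).

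**Figure D4:**
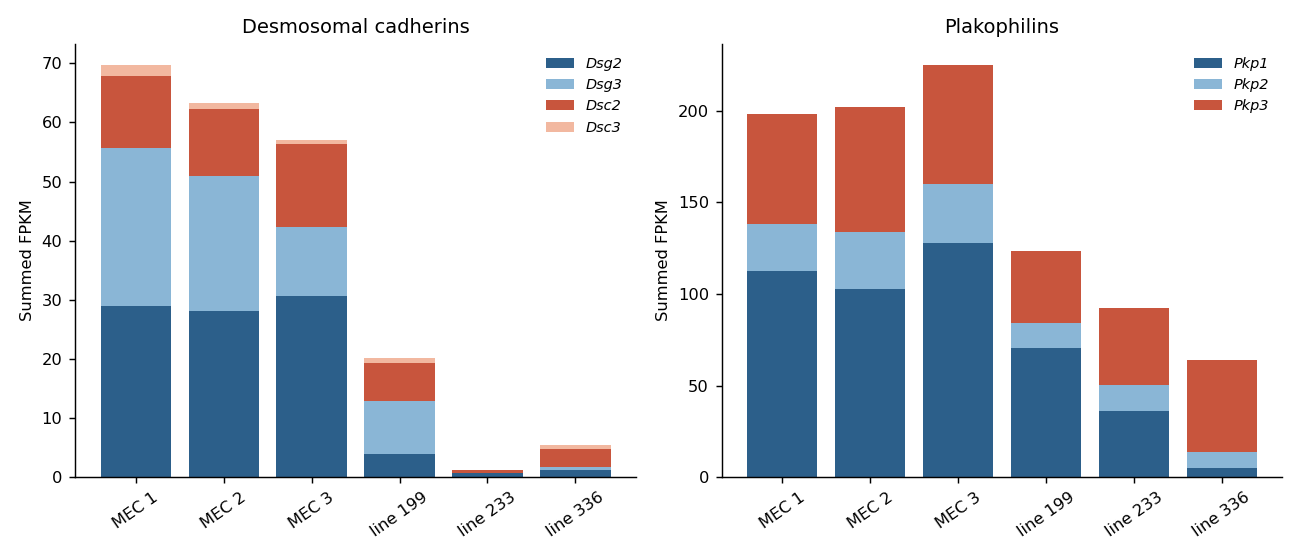
Summed FPKM of the desmosomal cadherins (left) and of the plakophilins (right) in each library, stacked by gene. The cadherin stack is 57.0 to 69.8 FPKM high in MEC and 1.29 FPKM in line 233, and line 336 has 5.01 FPKM of *Pkp1* and 50.3 FPKM of *Pkp3*.

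Ratios between isoforms within a library depend little on its scaling. The log2 ratio of *Pkp1* to *Pkp3* was 0.90, 0.59 and 0.96 in MEC and 0.82, -0.22 and -3.09 in lines 199, 233 and 336, a difference of -1.65 (exact permutation test, two-sided, p = 0.2). That of *Pkp1* to *Pkp2* was 1.91 ± 0.21 in MEC and 0.95 ± 1.52 in MEKO (SD, n = 3; exact permutation p = 0.4). Line 199 lay within the MEC range in the ratio to *Pkp3* and, at 2.29, above every MEC library in the ratio to *Pkp2*, and line 336 was the lowest library in both. The log2 ratio of *Dsg3* to *Dsg2* was -0.11, -0.29 and -1.31 in MEC and 1.02, -0.71 and -0.61 in the lines (exact permutation p = 0.6), with line 199 above every other library. The difference of 0.47 changed sign with a pseudocount of 0.1, to -0.27, and without line 199, to -0.092. That of *Dsc3* to *Dsc2* was -2.67 ± 0.53 in MEC and -1.35 ± 0.75 in MEKO (SD, n = 3; exact permutation p = 0.1, the smallest possible), and it is shaped by the pseudocount since *Dsc3* was below 1 FPKM in all but 1 library. After adjustment over the 4 ratios the exact permutation p values were 0.4 to 0.6.

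**Figure D5:**
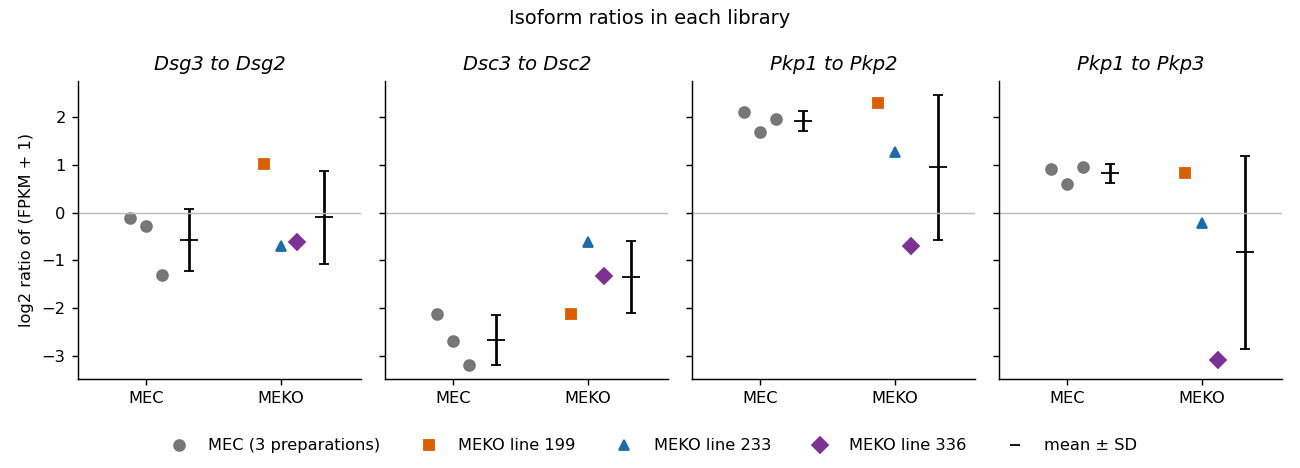
log2 ratio of (FPKM + 1) between isoforms in each library, with the mean ± SD of 3 libraries beside each group. Line 336 has the lowest *Pkp1* to *Pkp3* ratio, -3.09, and line 199 the highest *Dsg3* to *Dsg2* ratio, 1.02.

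The partners of the desmosome were examined through 6 lists with 59 genes, of which 54 were tested. Among them 7 were called lower and 1 higher, against 7.26% lower and 2.64% higher of all tested entries. In the list of other desmosomal cadherins and plakophilins, *Pkp4*, a plakophilin relative that also joins adherens junctions, was the one tested gene. It had 33.7 ± 6.98 FPKM in MEC and 38.7 ± 22.3 FPKM in MEKO (SD, n = 3; limma adjusted p = 0.921). None of the 6 plakin and corneodesmosome genes was called, and their median log2 fold change was 0.35. The large cytolinkers *Macf1* (46.7 ± 5.21 and 49.6 ± 5.44 FPKM) and *Dst* (38.1 ± 5.72 and 39.0 ± 11.6 FPKM) had nearly equal means in both groups. *Ppl*, which encodes the plakin periplakin, had 6.25 to 9.37 FPKM in MEC and 11.6, 21.2 and 20.5 FPKM in lines 199, 233 and 336, above every MEC library (log2 fold change 0.99, limma adjusted p = 0.0749).

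Keratins are the filaments that desmosomes hold. Of 11 tested, 2 were called, both lower and both of simple epithelium, against 7.26% of all tested entries called lower. The median log2 fold change was -2.49. *Krt19* had 739 ± 355 FPKM in MEC and 17.4 ± 9.44 FPKM in MEKO (SD, n = 3), a log2 fold change of -5.34 (limma adjusted p = 0.00382). *Krt8* had 2599 ± 782 and 405 ± 159 FPKM (log2 fold change -2.72, limma adjusted p = 0.0106), and *Krt8* passed in 11 of 13 alternative fits. The basal keratins *Krt5* and *Krt14*, named with the basal markers, had the same order of lines as *Dsg3*, highest in line 199 and lowest in line 233. In line 199 both keratins were above every MEC library, where *Dsg3* was below. *Krt5* had 201 to 435 FPKM in MEC and 608, 1.33 and 15.3 FPKM in lines 199, 233 and 336.

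The adherens junction is the other cadherin junction of these cells. Of 9 tested genes, 3 were called lower, against 7.26% of all tested entries, and the median log2 fold change was -0.17. *Cdh1*, which encodes E-cadherin, had 291 ± 30.3 FPKM in MEC and 92.6 ± 18.6 FPKM in MEKO (SD, n = 3), a log2 fold change of -1.66 (limma adjusted p = 0.00571). *Nectin4*, listed under its older symbol *Pvrl4*, had 34.2 ± 2.55 and 6.62 ± 1.74 FPKM (limma adjusted p = 0.00273). *Ctnnd1*, which encodes p120-catenin, had 180 ± 16.0 and 91.6 ± 19.7 FPKM (limma adjusted p = 0.0303), and *Ctnnd1* passed in 9 of 13 alternative fits. *Ctnnb1*, the close relative of *Jup*, was at 258 ± 39.6 and 249 ± 103 FPKM (limma adjusted p = 0.823). *Cdh1* kept 71.1 to 104 FPKM in the lines, and this classical cadherin was above the desmosomal cadherins, which summed to 1.29 to 20.1 FPKM.

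Of 17 tested regulators of epithelial genes, 1 was called higher and 1 lower, against 2.64% and 7.26% of all tested entries. The median log2 fold change was 0.04. *Klf4*, an epidermal differentiation factor, had 10.0 ± 2.22 FPKM in MEC and 25.4 ± 8.04 FPKM in MEKO (SD, n = 3; limma adjusted p = 0.0487), and *Klf4* passed in 3 of 13 alternative fits. *Grhl2*, which maintains epithelial junction genes, had 16.2 ± 1.24 and 18 ± 4.01 FPKM (limma adjusted p = 0.705). *Zeb1*, a repressor of epithelial junction genes, had 1.29 to 1.59 FPKM in MEC and 5.89, 0.095 and 0.356 FPKM in lines 199, 233 and 336.

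*Trp63*, which encodes the basal factor p63, had 7.94 to 11.3 FPKM in MEC, 15.6 in line 199, 0.0633 in line 233 and 4.47 in line 336 (limma adjusted p = 0.422). *Dsg3* and *Krt5* had the same order of lines for the highest and the lowest value, and *Perp* did not. *Trp53* had 98.7 ± 2.77 and 104 ± 26.2 FPKM (SD, n = 3; limma adjusted p = 0.913). Of the 10 other p53 and p63 targets and hemidesmosome genes, 1 was called lower, against 7.26% of all tested entries. It was *Lamb3*, a chain of laminin-332. *Lamb3* had 58.8 ± 15.9 FPKM in MEC and 10.5 ± 10.9 FPKM in MEKO (SD, n = 3; log2 fold change -2.77, limma adjusted p = 0.0476), and it passed in 3 of 13 alternative fits. The median log2 fold change of this list was -1.36, and its members did not share a direction. The p53 targets *Cdkn1a*, *Mdm2* and *Ccng1* had log2 fold changes of 1.00, 1.22 and 0.99 and did not pass (limma adjusted p = 0.264, 0.207 and 0.433). The lines did not share this direction. In line 199 *Cdkn1a* (73.8 FPKM, 85.2 to 97.6 in MEC) and *Ccng1* (44.8 FPKM, 71.8 to 108 in MEC) were below every MEC library. In lines 233 and 336 both genes were above every MEC library. *Mdm2*, which encodes the ubiquitin ligase of p53, had 51.9 to 61.6 FPKM in MEC, 55.1 in line 199, 276 in line 233 and 157 in line 336.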

How the data were processed

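Paired-end reads of 150 bp from 3 MEC and 3 MEKO libraries were trimmed by the authors with Trimmomatic, aligned to mm10 (GRCm38) with Bowtie2 and TopHat2 2.0.14 and quantified with Cufflinks 2.2.1, as the methods and the submitters' processing notes give them. The deposited values are FPKM, normalized by the authors for length and library size, with 1 column per library; 2 entries hold no values. FPKM carries no counts, so the depth is unknown and small values are the least precise.

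Groups were taken from the sample titles. Joined entries were split at commas and a symbol on several entries was read from that of highest mean, with older symbols from RefSeq. Entries with a mean FPKM of at least 1 (12461) were tested on log2(FPKM + 1) with limma 3.58.1 in R 4.3.3, with the trend option, adjusted by Benjamini-Hochberg over all of them, and called at an adjusted p under 0.05 and a log2 fold change beyond 0.75. The test was checked on simulated data with the same spread in both groups. That check does not cover genes whose spread differs between MEC and MEKO. Fold changes on this scale understate those of low genes. Each library is a separate preparation or line, and p-values measure the spread between these 6. No run date or batch is stated in the labels, so a batch and the groups cannot be told apart. Positions are from GENCODE M21.

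Named were the 10 members, the targeted genes, *Ctnnb1*, *Cdh1*, *Trp63*, *Trp53*, *Zeb1* and *Grhl2*, up to 5 called genes per list (or the 2 highest where none was called; *Dsg1b* was the second), and the 5 genes most like *Dsp* and *Jup*. Other names were chosen after their values were seen. Of the called genes of the lists, 1 is counted but not reported here. The members and lists were chosen with earlier results of these data known. Alternatives were a pseudocount of 0.1, no filter, a mean FPKM of at least 5, quantile and upper-quartile scaling, no trend, sample weights, no fold-change threshold, and each library left out.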

Additional observations from a re-analysis of the deposited data

How the results depend on the processing

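The 2 calls, *Dsg2* and *Pkp2*, were also the calls with a pseudocount of 0.1, no filter, a mean FPKM of at least 5, no trend, no fold-change threshold, and quantile or upper-quartile scaling. With each library left out in turn between 1 and 7 members were called lower, 3 to 16 of the related genes were called lower and 0 to 5 higher, and over all entries 211 to 1398 were lower and 48 to 568 higher. With sample weights, which ran from 0.236 for line 199 to 13.3 for MEC 1, 7 members, 18 related genes lower and 4 higher, and 1378 lower and 600 higher entries were called; the estimate of these weights stopped before it converged, and whether the calls rest on the weight of MEC 1 was not tested. A mean FPKM of at least 5 gave 501 lower entries, among fewer tested. The 1 related gene called higher, *Klf4*, became 0 with that filter, no filter, no trend, a pseudocount of 0.1 or upper-quartile scaling; the cause was not tested. The ratio of *Dsg3* to *Dsg2* turned to -0.27 with a pseudocount of 0.1 and ranged from -0.092 to 0.77 with each library left out, and *Perp* ranged from -0.017, without line 233, to 0.45, without line 336. In line 199, 6 members were lower beyond 1.5-fold and 1 beyond 3-fold. These counts were 8 and 4 in line 233, and 7 and 6 in line 336. The share of all entries at these folds was not computed, so the counts have no background. Each member had 1 entry, so summing entries changes nothing. No paired analysis was possible because the groups share no replicate numbers.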

Other observations

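The genes whose pattern was most like that of the obligate plaque genes were found by Pearson's r of log2(FPKM + 1) over the 6 libraries, among 6919 other entries with a mean FPKM of at least 10. For *Dsp* these were *Dusp7*, a MAP kinase phosphatase, *Sec24d*, a coat protein of vesicles from the endoplasmic reticulum, *Vgll3*, a partner of TEAD factors, *Enpp1*, an ectoenzyme, and *Nfic*, a nuclear factor I protein, with r from 0.991 to 0.997. Like *Dsp*, *Sec24d* was highest in line 199, at 19.8 FPKM against 15.5 to 17.5 in MEC, and had 7.27 and 4.76 FPKM in lines 233 and 336. For *Jup* these were *Epb4.1l2*, a membrane skeleton protein, *Gm26716*, *Sdc3*, a syndecan, *Asph*, a hydroxylase, and *Acvr1*, a BMP receptor, with r from 0.997 to 0.999. *Sdc3* had 26.2 to 43.0 FPKM in MEC and 13.1, 1.57 and 0.85 FPKM in lines 199, 233 and 336. These are the highest of many values over libraries of 2 groups, so r is given as a description.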
